A study of Rattus norvegicus with 18 samples.

Results

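The replication-dependent histone cluster genes were examined in RNA-seq of the prefrontal cortex (PFC) of 18 Sprague Dawley rat pups at postnatal day 14. The members are the rows whose gene symbol begins with Hist followed by a digit, which name the histone clusters Hist1, Hist2 and Hist3. They are 40 of 32623 rows and carry 34 distinct symbols, with 26 rows from Hist1, 12 from Hist2 and 2 from Hist3. The rows were chosen by their symbols, but the family itself was selected on the log2 fold change between the in utero and the postnatal oxycodone groups: it was taken up after a pair of its H2B genes, *Hist1h2bcl1* and *Hist1h2bk*, had been seen to differ there. Values between those groups are therefore given as a description.

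The 3 groups held 6 pups each. Dams of the saline (SAL) group were gavaged with saline. Dams of the postnatal oxycodone (PNO) group received oxycodone (oxy), an opioid agonist, at 15 mg/kg/day from parturition until weaning, so that the pups met the drug through breastmilk. In the in utero (IUO) group, dosing of the dams began at 10 mg/kg/day, was brought up to 15 mg/kg/day before they were mated, and went on through gestation until weaning. The labels do not say which dam a pup came from, and the p-values below measure the spread between pups only. The sex of each pup was not in the labels and was not modelled.

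Histones are the proteins around which DNA is wound. An octamer of H2A, H2B, H3 and H4 forms the core of the nucleosome, and H1 is the linker histone that binds where DNA enters and leaves it. Replication-dependent genes supply histones in S phase. They lie in clusters, mostly lack introns, and typically give an mRNA that ends in a stem-loop bound by the protein Slbp in place of a poly(A) tail. Replication-independent variants such as H3.3 and H2A.Z are made from polyadenylated mRNA throughout life, also in neurons that no longer divide. Some cluster genes, among them members of the H1 and H2B classes, also give polyadenylated transcripts in cells that have left the cycle. The libraries were made with a TruSeq kit, which as background selects RNA by its poly(A) tail, and histone RNA without a tail was not analysed here.

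Library totals lay between 18381819 and 26084780 expected counts (median 22726306). An expected count is an estimate that divides a read among the rows it matches. The 40 rows together received 1448.8 to 2202.2 counts per pup, which was 0.00648% to 0.01077% of a library. Levels within a gene are compared in CPM, which are counts divided by the TMM-adjusted total of the pup. The summed level of 6 neuronal markers was 3265 to 4856 CPM over the pups, and that of 5 choroid plexus markers 2.52 to 970.7 CPM. Markers of myelin and of striatal neurons varied widely between pups, and their values stand beside the results below. In bulk tissue, fewer cells of a type and less RNA per cell cannot be told apart.

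Most of the histone signal came from few genes. *Hist3h2ba*, an H2B gene of the small Hist3 cluster, *Hist1h2bcl1*, an H2B gene of Hist1, and *Hist1h1c*, a linker histone gene, held 83.16% of all member counts. The top 8 rows held 96.17%, while 29 rows received between 1 and 88 counts over all 18 pups together. No member was without a count. By class, H2B rows took 67.59% of the counts, H1 rows 18.27%, H2A rows 11.04%, H4 rows 1.73% and H3 rows 1.36%.

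Levels between genes are compared in TPM, which the authors scaled to transcript length and to the same total in each pup. *Hist3h2ba* had the highest mean at 112.7 TPM, with pups from 95.0 to 135.2 TPM, and ranked above 95.76% of all rows. *Hist1h1c* followed at 42.6 TPM (27.8 to 77.7) and *Hist1h2bcl1* at 27.6 TPM (15.6 to 40.2). The ranges of these latter genes over pups overlapped each other and did not reach that of *Hist3h2ba*. The H2A rows *Hist2h2aa2* and *Hist2h2aa3* stood at 21.1 TPM each and the H4 gene *Hist1h4m* at 7.499 TPM. The lower H2B genes were *Hist2h2be* at 4.20 TPM, *Hist1h2bk* at 2.27 TPM and *Hist1h2bo* at 1.27 TPM. The highest H3 row, *Hist2h3c2*, reached 1.599 TPM. Behind the leaders of H1, H2A and H4 the levels dropped steeply, while the next *Hist2h3c2* row stood at 1.26 TPM, not far from the leader of H3. The next H1 row, *Hist1h1t*, the gene of a linker histone known from testis, had 0.523 TPM, and *Hist1h1d* had 0.301 TPM. The next H2A row after the pair, *Hist1h2ail1*, had 0.865 TPM, and the H4 rows *Hist1h4b* and *Hist2h4* had 0.836 TPM each.

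**Figure D1:**
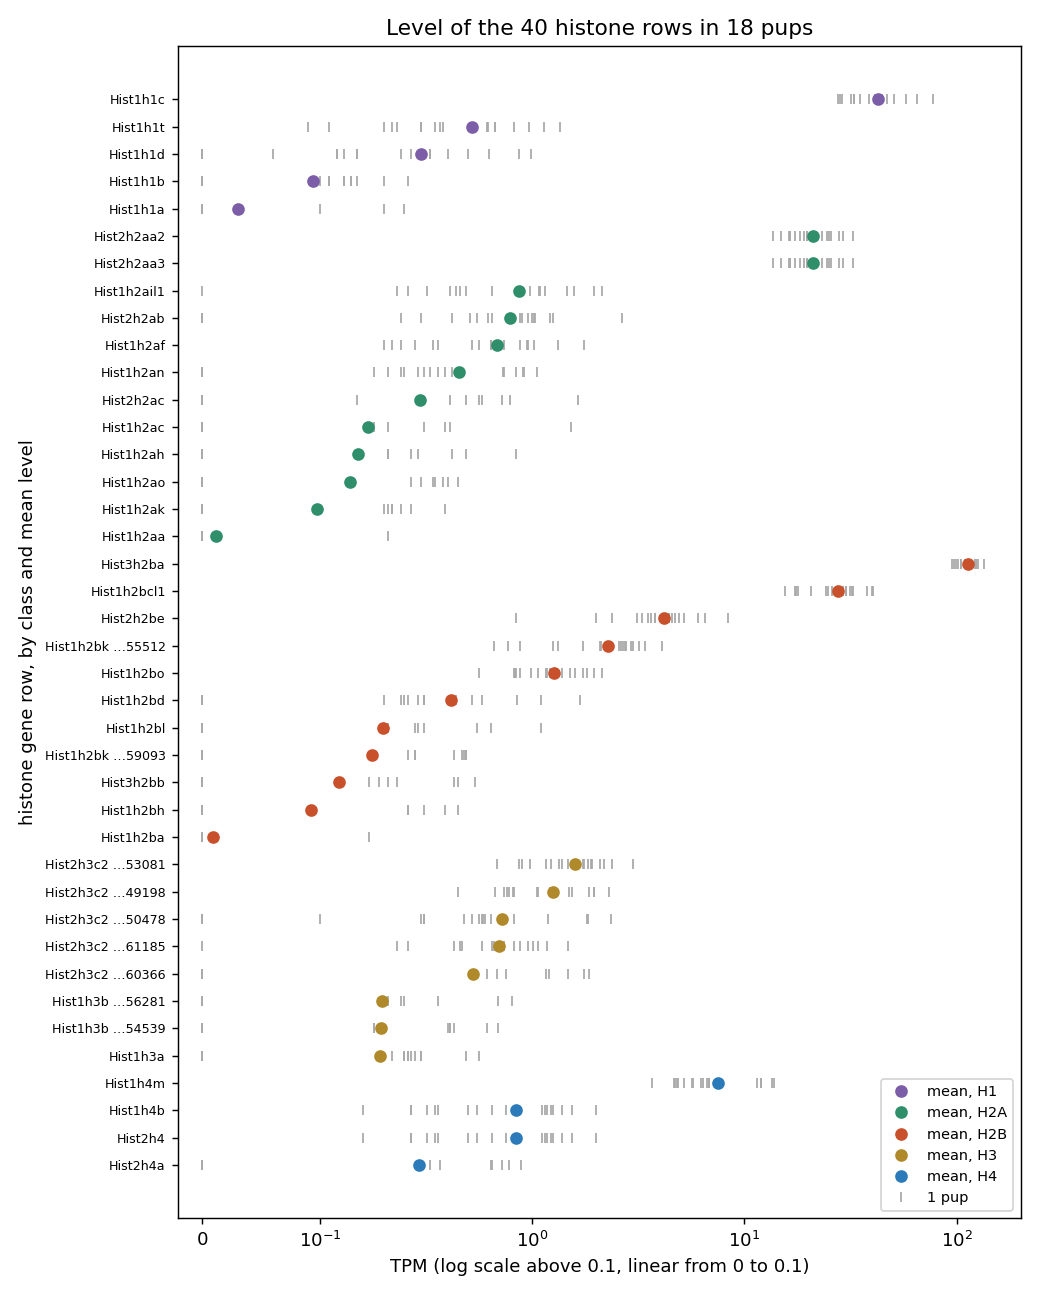
Level of the 40 histone rows in TPM (horizontal axis, logarithmic above 0.1 and linear from 0 to 0.1). Each grey tick is 1 pup of 18 and each coloured point the mean over all pups, coloured by class; symbols on several rows carry the last digits of their Ensembl identifier. *Hist3h2ba* at 112.7 TPM and the leaders of H1 and H2A stand far above the other rows of their classes.

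For scale, the replication-independent histone genes *H3f3a*, *H3f3b* and *H2afz* had means of 611.9, 359.3 and 284.6 TPM. *Slbp*, whose protein binds the stem-loop, had 28.9 TPM, and the cycle genes *Mki67*, a marker of dividing cells, and *Top2a*, a topoisomerase used in division, had 2.80 and 4.39 TPM. Summed by class, the members reached a median of 149.67 TPM for H2B, 42.87 for H2A, 42.22 for H1, 9.155 for H4 and 5.12 for H3. The core histones are needed in equal amounts in the nucleosome, and the summed RNA levels of their cluster genes in these libraries were far from equal.

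Near-identical copies limit what a row can show. Of the 40 rows, 30 (75.0%) had a fractional count in at least 1 pup, a mark of reads divided between rows, against 20.8% of the 23911 other rows with a count. A value was taken as whole within 0.005. Fractions appeared in 10 of 12 H2A rows, 8 of 11 H2B rows, 7 of 8 H3 rows and 4 of 4 H4 rows, and in 1 of 5 H1 rows. *Hist2h2aa2* and *Hist2h2aa3* had the same value in all 18 pups and are a single measurement. *Hist1h4b*, *Hist2h4* and the row LOC100912564 were equally identical, as were a *Hist2h3c2* row (ENSRNOG00000053081) and LOC102548682. *Hist2h3c2* stands on 5 rows and *Hist1h3b* and *Hist1h2bk* on 2 each. *Hist1h1c* and *Hist2h2be* had whole counts in every pup and *Hist3h2ba* in all but 7, whereas *Hist1h2bcl1* and *Hist1h4m* were fractional in all 18 and *Hist1h2bk* in 17.

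The model behind a row also sets its reads. Of the 35 rows of the core classes, 25 had the most frequent model length of their class, which is a coding length: 312 bases for H4 (4 rows), 381 for H2B (4 rows), 393 for H2A (9 rows) and 411 for H3 (8 rows). These 25 rows held 18.8% of the core-class counts. The best covered H2B rows had longer models, 630 bases for *Hist3h2ba* and 949 bases for *Hist1h2bcl1*. The rows named *Hist1h2ao* and *Hist1h2ail1* carry H2A symbols but models of 312 and 411 bases, the coding lengths seen for H4 and H3, so their class rests on the symbol alone.

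As background, promoters of replication-dependent histone genes hold elements that are shared within a class, and the sequence before the annotated start is shown for 4 members. The bases printed are the 150 just before the start in RefSeq (GRCr8), 5′ to 3′ on the gene's strand, with matches in capitals to the octamer ATTTGCAT, to CCAAT and to the TATA-box letters TATAA, each searched on both strands. They are shown for the most abundant H2B gene, for *Hist2h2be* and *Hist1h2bk*, H2B genes that are described below, and for the leading H4 gene as a contrast. *Hist3h2ba* lies at chr10:44225271-44225420 (plus strand), *Hist2h2be* at chr2:186469302-186469451 (plus), *Hist1h2bk*, listed there as *H2bc12*, at chr17:47181941-47182090 (minus) and *Hist1h4m* at chr17:47393614-47393763 (plus). The build of the count files is not given in the sources used here, so the match is by symbol or synonym. *Hist1h2bk* was reached as a synonym of *H2bc12*, and its symbol stands on 2 rows.
Hist3h2ba: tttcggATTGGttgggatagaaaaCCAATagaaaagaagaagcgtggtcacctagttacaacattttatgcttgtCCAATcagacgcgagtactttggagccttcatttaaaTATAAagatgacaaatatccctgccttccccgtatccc
Hist2h2be: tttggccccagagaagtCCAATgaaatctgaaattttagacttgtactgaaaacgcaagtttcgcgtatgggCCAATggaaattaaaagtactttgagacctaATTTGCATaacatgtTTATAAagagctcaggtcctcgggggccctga
Hist1h2bk: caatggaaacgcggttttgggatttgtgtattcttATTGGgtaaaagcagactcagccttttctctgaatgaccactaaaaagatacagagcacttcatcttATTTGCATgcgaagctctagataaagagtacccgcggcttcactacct
Hist1h4m: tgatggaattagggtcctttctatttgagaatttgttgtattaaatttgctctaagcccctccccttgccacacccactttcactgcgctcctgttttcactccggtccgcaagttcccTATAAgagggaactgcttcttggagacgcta
The octamer, a site of Oct factors known from H2B promoters, was found in *Hist2h2be* at bases -47 to -40 and in *Hist1h2bk* at -48 to -41, and these letters were not in the window of *Hist3h2ba* or *Hist1h4m*. *Hist3h2ba* held CCAAT on either strand 3 times, *Hist2h2be* 2 times, *Hist1h2bk* 1 time and *Hist1h4m* 0 times. TATAA was present in *Hist3h2ba*, *Hist2h2be* and *Hist1h4m*. In *Hist2h2be* the forward and reverse matches overlapped.

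Of the 40 rows, 39 matched a RefSeq gene by symbol or synonym, and 31 led to 1 gene with 1 promoter. Of these, 6 further rows of *Hist2h3c2*, *Hist1h3b* and *Hist1h2bk* repeat a symbol and were not counted again, and *Hist1h2bcl1* was left out because its match, as a synonym of *Hist1h2bc*, was taken as doubtful, which leaves 24 promoters. The octamer was present in 5 of 7 H2B promoters, 4 of 11 H2A promoters and 0 of 6 of the other classes, against 0.899% of all 33465 promoters. CCAAT was present in 22 of 24 (91.7%) against 23.5% of all, and TATAA in 21 of 24 (87.5%) against 15.2%. H2A and H2B genes often lie head to head, so that a stretch of DNA can be counted for both classes. A match is a description of the letters, and whether a factor was bound was not measured.

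Changes between groups were tested with edgeR on rounded expected counts, with p-values adjusted by Benjamini-Hochberg over the 15703 rows that passed the filter on low counts. Calls needed 1.5-fold or more together with an adjusted p-value under 0.05. Of the 40 members 9 passed that filter: *Hist1h1c*, *Hist2h2aa2*, *Hist2h2aa3*, *Hist3h2ba*, *Hist1h2bcl1*, *Hist2h2be*, *Hist1h2bk* (ENSRNOG00000055512), *Hist1h2bo* and *Hist1h4m*. The identical H2A rows make these 9 rows 8 measurements. The other 31, all H3 rows among them, were too low to test. *Hist1h2bk* exceeded the filter level in 5 SAL, 5 PNO and 1 IUO pups, so it entered through the groups in which it was higher.

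No member was called between PNO and SAL, where 0% of all rows tested were called. At an unadjusted p-value under 0.05 and 1.5-fold the count was likewise 0 members, against a background of 1.24% (0.828% lower and 0.414% higher). DESeq2 and limma-voom with sample quality weights called 0 members as well, where they called 0.00637% and 0% of all rows. The median log2 fold change of the 9 rows was 0.04, beside 0.00 over all rows tested, and it ran from -0.06 without SAL replicate 6 to 0.11 without SAL replicate 3. Without the filter, the median of all 40 members was 0.20, beside 0.00 over all rows. With identical rows summed, that of 10 members tested was 0.13. Of the 9 tested rows, 4 had negative and 5 positive values, where 49.2% of all rows were negative.

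*Hist3h2ba* stood at 36.1 CPM in the lowest, 42.3 in the median and 47.5 in the highest SAL pup, and at 29.7, 41.0 and 49.1 CPM in PNO. These ranges overlapped almost wholly, and the log2 fold change was -0.05 ± 0.10 (SE; edgeR adjusted p = 0.937). *Hist1h2bcl1* ran from 11.99 over 17.2 to 21.8 CPM in SAL and from 14.2 over 18.7 to 20.1 CPM in PNO, a log2 fold change of 0.04 ± 0.17 (adjusted p = 0.977). *Hist1h1c*, the gene of the abundant somatic linker histone H1.2, ran from 11.6 over 14.8 to 23.0 CPM in SAL and from 13.5 over 16.0 to 17.0 CPM in PNO, with a log2 fold change of -0.04 ± 0.23 (adjusted p = 0.981). All of these differences were well within the spread between pups.

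Among the 9 tested rows, the largest difference between PNO and SAL was that of *Hist2h2be*, an H2B gene of the Hist2 cluster. It had 0.713, 0.825 and 1.55 CPM in the lowest, median and highest SAL pup and 0.174, 0.608 and 1.13 CPM in PNO. In PNO, 4 of 6 pups were below the lowest SAL pup, and the PNO pup labelled replicate 1 was above 5 of the SAL pups. The log2 fold change of -0.57 ± 0.32 did not pass (edgeR adjusted p = 0.912). It was -0.37 without SAL replicate 1, the highest SAL pup, -0.37 without PNO replicate 6, the lowest PNO pup, and -1.02 with limma-voom with sample quality weights. The gene rests on 4 to 33 counts per pup. *Hist2h2aa2* was at 2.502, 4.52 and 5.77 CPM in SAL and 3.48, 5.04 and 7.38 CPM in PNO, a log2 fold change of 0.25 ± 0.22 (adjusted p = 0.912). That value was 0.12 without SAL replicate 6 or PNO replicate 3, 0.34 without SAL replicate 3, PNO replicate 5 or PNO replicate 6, and 0.10 with limma-voom with sample quality weights. *Hist1h4m* was at 0.697, 1.24 and 2.47 CPM in SAL and 0.623, 1.12 and 2.03 CPM in PNO. Its log2 fold change of -0.31 was -0.08 without SAL replicate 4, -0.55 without PNO replicate 3 and 0.03 with limma-voom with sample quality weights.

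Between IUO and SAL no member was called either, again with 0% of all rows called. All 9 tested members had negative log2 fold changes, with a median of -0.31 beside -0.01 over all rows, of which 52.0% were negative. The identical H2A rows both count in this median. With identical rows summed, the median of 10 members tested was -0.18, beside -0.01 over all rows. Without the filter on low counts, however, the median of all 40 members was -0.01, equal to that over all rows. The lower median is thus that of the 9 rows that passed. The rows added without the filter were too low to test, so whether the family as a whole was lower cannot be told. The median of the 9 ran from -0.43 without SAL replicate 6 to -0.21 without SAL replicate 3. At an unadjusted p-value under 0.05 and 1.5-fold, 2 members were lower and 0 higher, beside 1.60% of all rows (1.00% lower and 0.599% higher). DESeq2 called 0 members (0.140% of all rows) and limma-voom with sample quality weights called 1, *Hist1h2bcl1* (0.108% of all rows). The 2 lower members are *Hist1h2bcl1* and *Hist1h2bk*, the genes for which the family was taken up, and this comparison uses the same IUO pups, so the count is not independent of that choice. *Hist1h2bk* moreover passed the filter through the SAL and PNO pups, which favours a lower value in IUO among rows so admitted.

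*Hist1h2bcl1* was at 7.79 CPM in the lowest, 10.0 in the median and 17.4 in the highest IUO pup, against 11.99, 17.2 and 21.8 CPM in SAL. Of the 6 IUO pups, 5 were below every SAL pup, and the pup labelled IUO replicate 1, at 17.4 CPM, was within the SAL range. The group means were 10.98 ± 3.34 CPM in IUO and 17.4 ± 3.50 CPM in SAL (SD, n = 6), a difference of -36.93%. The log2 fold change was -0.67 ± 0.17 (edgeR adjusted p = 0.335), which does not pass over all rows tested, while limma-voom with sample quality weights gave -0.82 (adjusted p = 0.0162, against 0.0162 to 0.693 over all alternatives). The counts behind it were 197.5 to 325.1 per IUO pup and 291.0 to 486.6 per SAL pup, so it is the better covered member of the pair.

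*Hist1h2bk* was at 0.116, 0.201 and 0.532 CPM in the lowest, median and highest IUO pup and at 0.344, 0.493 and 0.626 CPM in SAL. Here too 5 IUO pups were below every SAL pup and IUO replicate 1 was the highest of its group. The log2 fold change was -1.05 ± 0.33 (edgeR adjusted p = 0.498). The row rests on 2.93 to 9.92 expected counts in IUO and 8.36 to 14.0 in SAL. Its fractional counts come from reads divided with other rows.

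The other tested members had smaller log2 fold changes or a wider spread. *Hist3h2ba* was at 34.7, 36.2 and 41.5 CPM in the lowest, median and highest IUO pup. All 6 were below the SAL median of 42.3 CPM and 3 were below the lowest SAL pup, with a log2 fold change of -0.19 ± 0.10 (edgeR adjusted p = 0.803). *Hist1h4m* was at 0.559, 0.745 and 1.63 CPM, with a log2 fold change of -0.65 ± 0.36 (adjusted p = 0.805), and SAL pups alone spanned 0.697 to 2.47 CPM. The value was -0.42 without SAL replicate 4 and -0.91 without IUO replicate 5. *Hist2h2aa2* was at 2.83, 3.40 and 4.67 CPM, with a log2 fold change of -0.31 ± 0.22 (adjusted p = 0.897), and no IUO pup lay below the lowest SAL pup. *Hist1h2bo* and *Hist2h2be* had log2 fold changes of -0.02 ± 0.31 and -0.08 ± 0.32.

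The IUO value of *Hist1h1c* rested largely on a single pup. IUO replicate 1 had 27.8 CPM, the highest value of all 18 pups, and the other 5 IUO pups had 9.10 to 14.2 CPM. With it, the log2 fold change from SAL was -0.17 ± 0.23 (edgeR adjusted p = 0.986). Without it the value was -0.47, which did not pass either. The same pup was the highest of its group for *Hist1h2bcl1*, *Hist1h2bk*, *Hist2h2be* and *Hist2h2aa2*.

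**Figure D2:**
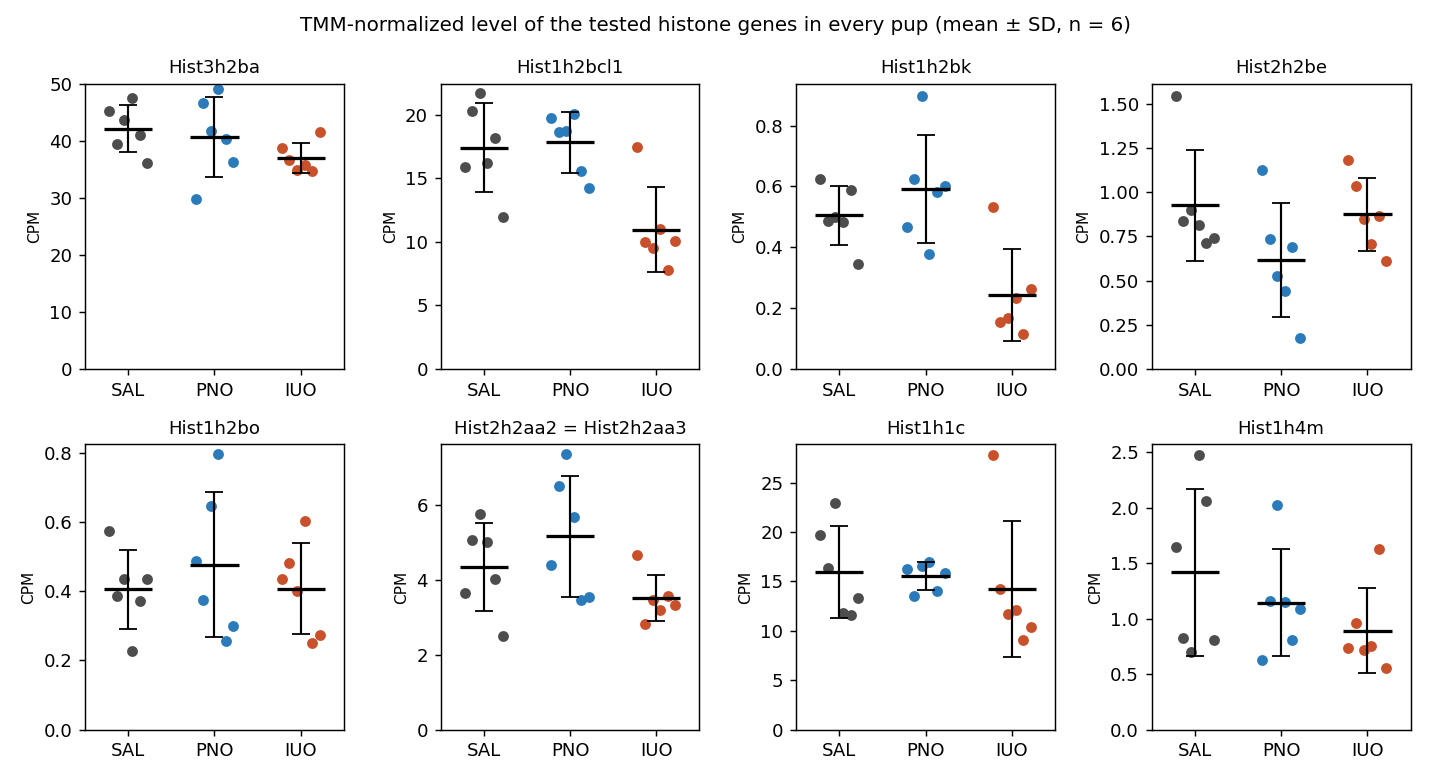
TMM-normalized CPM (vertical axes, each from 0) of 8 tested histone genes in SAL, PNO and IUO, with 1 point per pup and bars for the mean ± SD (n = 6); *Hist2h2aa2* also stands for the identical row *Hist2h2aa3*. For *Hist1h2bcl1* and *Hist1h2bk*, 5 of 6 IUO points lie below all SAL and PNO points, and the remaining IUO point lies among them.

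Between IUO and PNO, the contrast in which the H2B pair was first seen, no member was called, where 0.0446% of all rows were. At an unadjusted p-value under 0.05 and 1.5-fold there were 2 members, again *Hist1h2bcl1* and *Hist1h2bk*, beside 3.82% of all rows (2.22% lower and 1.60% higher). DESeq2 and limma-voom with sample quality weights each called these 2, where they called 1.10% and 4.48% of all rows, and as both genes were selected in this contrast the calls only restate the choice. *Hist1h2bcl1* ran from 7.79 to 17.4 CPM in IUO and 14.2 to 20.1 CPM in PNO, with a log2 fold change of -0.70 ± 0.17, and *Hist1h2bk* from 0.116 to 0.532 and 0.377 to 0.898 CPM, with -1.28 ± 0.32. For each gene 5 of 6 IUO pups lay below the lowest PNO pup. *Hist2h2aa2* had a log2 fold change of -0.55 ± 0.22, with 4 IUO pups below the lowest PNO pup, and *Hist2h2be* 0.49 ± 0.32, the only positive value among the 9 rows. The latter was 0.29 without PNO replicate 6, 0.76 without PNO replicate 1 and 0.80 with limma-voom with sample quality weights. The median of the 9 was -0.34, beside 0.00 over all rows, of which 50.1% were negative. Single pups moved this median, which was -0.16 without PNO replicate 3 and -0.57 without IUO replicate 5, and limma-voom with sample quality weights gave -0.53. Without the filter the median of all 40 members was -0.25, and with identical rows summed that of 10 members tested was -0.45. Since the contrast led to the choice of the family, these values and counts describe that choice and support nothing beyond it.

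**Figure D3:**
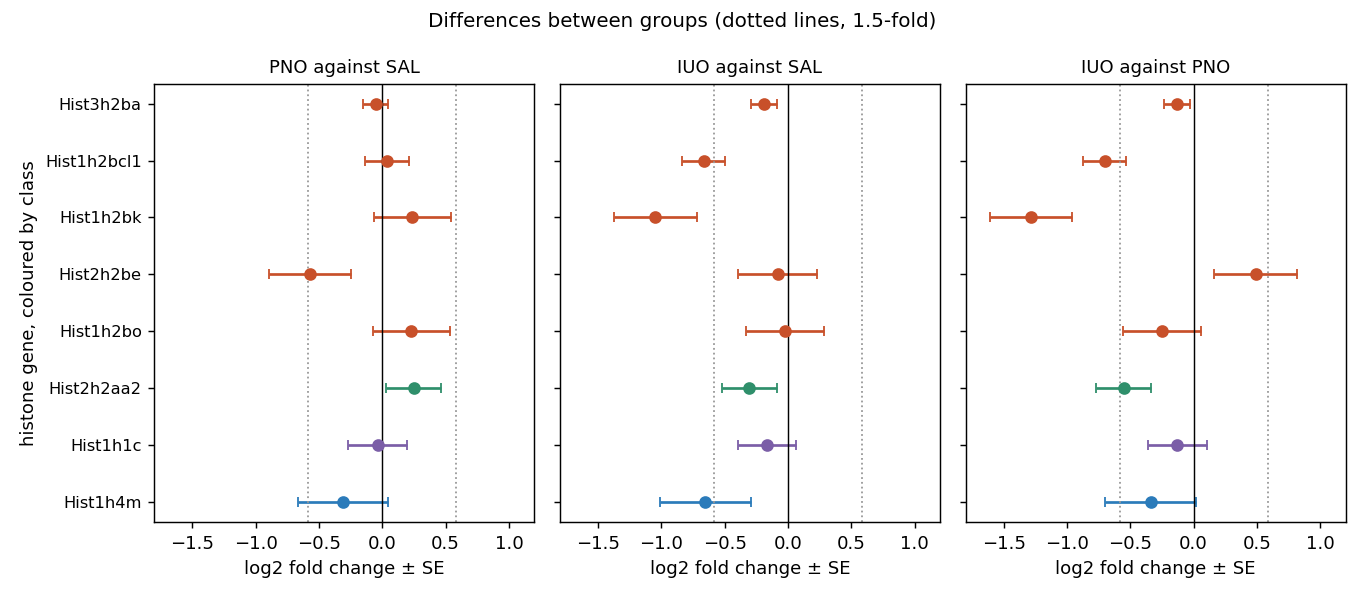
Log2 fold change ± SE (horizontal axis) of 8 tested histone genes, coloured by class as in the plot of levels, with a panel for PNO against SAL and a panel each for IUO against SAL and against PNO; dotted lines mark 1.5-fold. *Hist1h2bcl1* and *Hist1h2bk* sit to the left of the line in both comparisons of IUO, and *Hist3h2ba* stays near 0 in all panels.

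Class sums over all 40 rows, including those too low to test, were 89.9 ± 11.4 CPM in SAL, 90.3 ± 11.1 in PNO and 74.5 ± 12.9 in IUO (SD, n = 6). The H2B sum was 61.6 ± 6.25 CPM in SAL, 60.4 ± 7.89 in PNO and 49.7 ± 5.30 in IUO. Pups ran from 49.8 to 67.3 CPM in SAL and from 43.9 to 58.5 CPM in IUO, with 4 of 6 IUO pups below the lowest SAL pup, so the ranges overlapped. Of the difference of -11.9 CPM between the IUO and SAL means, *Hist1h2bcl1* made up -6.43 CPM and *Hist3h2ba* -5.13 CPM, while *Hist1h2bk* made up -0.260 CPM.

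The other classes had wider overlaps. The H1 sum was 16.3 ± 4.66 CPM in SAL, 16.0 ± 1.26 in PNO and 14.6 ± 7.02 in IUO, and nearly all of it was *Hist1h1c*. The H2A sum was 9.24 ± 2.47 CPM in SAL, 11.2 ± 3.15 in PNO and 7.83 ± 1.32 in IUO. The H4 sum was 1.68 ± 0.683, 1.52 ± 0.446 and 1.14 ± 0.356 CPM in the same order. The H3 sum was 0.997 ± 0.212 CPM in SAL, 1.29 ± 0.290 in PNO and 1.19 ± 0.332 in IUO, so that unlike the other classes its mean was higher in IUO than in SAL. In CPM, differences between means exceeded the SD of both groups compared for the H2B sum and the total in IUO against SAL and against PNO, and for the H2A sum in IUO against PNO. In TPM this held for the H2B sum also in PNO against SAL (149.1 ± 13.1 and 163.0 ± 12.7 TPM), and it did not hold for the total in IUO against PNO (229.3 ± 33.7 and 259.5 ± 20.5 TPM). The sums carry no test, since the H2B sum and the total contain the genes for which the family was chosen. Setting the differences beside the SD is a description and supports nothing beyond that choice.

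**Figure D4:**
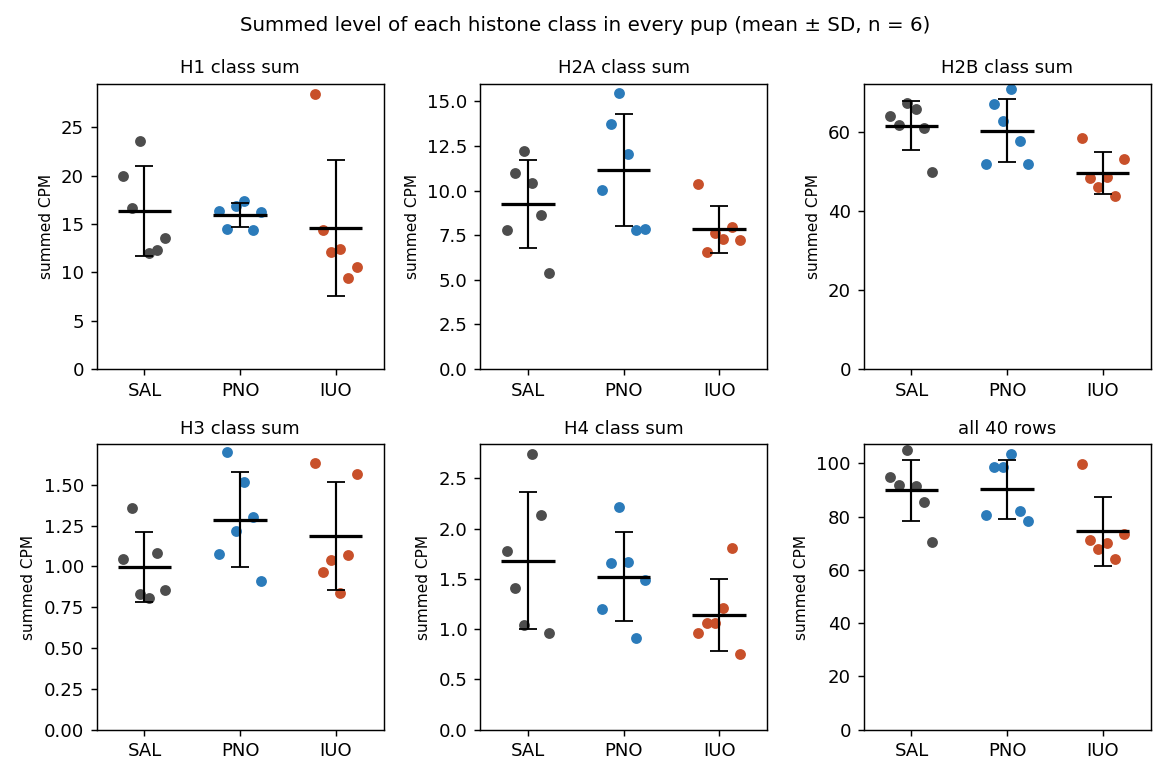
Summed CPM of each histone class and of all 40 rows (vertical axes, each from 0) in SAL, PNO and IUO, with 1 point per pup and bars for the mean ± SD (n = 6). The H2B sum of IUO (43.9 to 58.5 CPM) sits low in the SAL range of 49.8 to 67.3 CPM and partly below it, and the H3 sum shows no such shift.

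The medians of some marker sums of other cells differed between the groups, and no marker gene passed an adjusted p-value of 0.05 in edgeR. The summed level of 7 myelin genes, made by oligodendrocytes, ran from 1721 over a median of 6295 to 9285 CPM in SAL, from 2917 over 10304 to 14745 CPM in PNO and from 2204 over 3001 to 5619 CPM in IUO. All 7 were lower in IUO than in PNO at an unadjusted p-value under 0.05 and 1.5-fold, as were 2.22% of all rows. Of the 7, 0 passed the adjusted threshold. In the same comparison all 6 oligodendrocyte precursor genes, all 5 choroid plexus genes and 4 of 5 astrocyte genes were lower. All 8 striatal genes were higher. Of these other genes 0 passed the unadjusted p-value together with 1.5-fold. The sum of 8 striatal genes had medians of 307.2, 321.9 and 660.6 CPM in SAL, PNO and IUO with overlapping ranges, and that of 2 blood genes 405.7, 426.0 and 616.0 CPM. Both blood genes were higher in IUO than in SAL at an unadjusted p-value under 0.05 and 1.5-fold, where 0.599% of all rows were. *Alas2* was at 1.31 ± 0.44 and *Hbb* at 0.99 ± 0.47 on the log2 scale. The microglial gene *Tmem119* was at -1.34 ± 0.24 in that comparison (edgeR adjusted p = 0.0997). Of the 6 microglial genes, however, 3 were higher and 3 lower there, with a median of -0.05. *Alas2*, *Hbb* and *Tmem119* were named after their values were seen. IUO replicate 1 had the highest myelin and cell cycle sums of its group. The part of these markers in the IUO values of the histone genes was not tested.

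Each class leader was set against 4 marker sums over the 18 pups, 20 relations in all, with permutation p-values adjusted over them. Pups were permuted without regard to group, so these p-values also take in differences between the groups. A single relation passed, that of *Hist2h2aa2* with the myelin sum (Pearson r = 0.70, permutation p = 0.0016, adjusted p = 0.032; Spearman rho = 0.69, permutation p = 0.0021, adjusted p = 0.041). Without the 2 pups farthest from the median myelin sum r was 0.68. Within groups it was 0.93 in SAL, 0.35 in PNO and 0.18 in IUO among 6 pups each, and the difference between these values was not tested. It no longer passed when SAL replicate 6, PNO replicate 3, IUO replicate 4 or IUO replicate 6 was left out, or with log2(TPM + 1) in place of log2 CPM. *Hist1h1c* had r = 0.56 with the cell cycle sum (permutation p = 0.016, adjusted p = 0.16) and r = 0.51 with the myelin sum (permutation p = 0.032, adjusted p = 0.21), neither of which passed. *Hist3h2ba*, the most abundant member, had r = 0.41 with the cell cycle sum (permutation p = 0.09, adjusted p = 0.23).

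**Figure D5:**
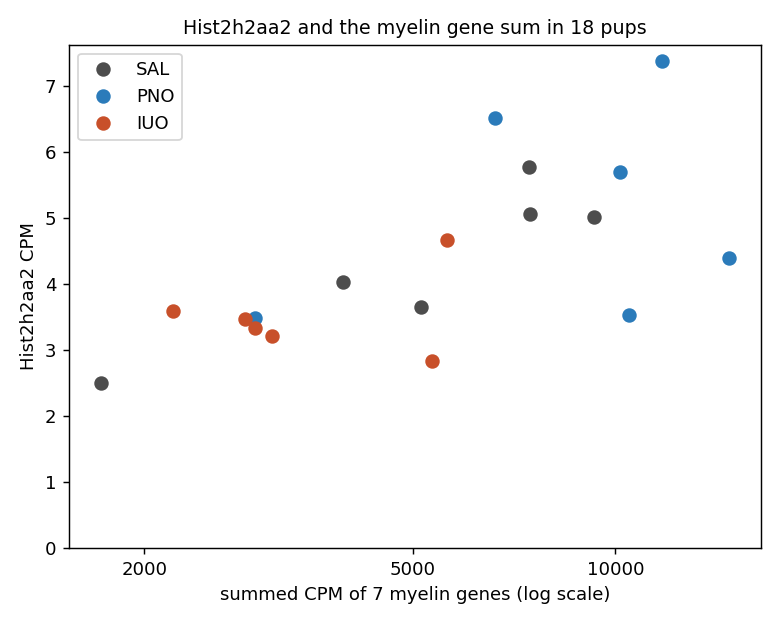
*Hist2h2aa2* in CPM (vertical axis, from 0) against the summed CPM of 7 myelin genes (horizontal axis, logarithmic), with 1 point per pup coloured by group. Over all 18 pups r was 0.70 on log2 values, and r was 0.18 among the IUO pups, whose myelin sums of 2204 to 5619 CPM lie in the left part of the plot.

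The other genes of the histone pathway, in lists that hold no members, gave no calls in edgeR. At the unadjusted p-value and 1.5-fold, *Rrm2*, a subunit of ribonucleotide reductase, was the only row of these 4 lists, at -0.72 ± 0.33 in PNO against SAL and 0.92 ± 0.33 in IUO against PNO, and it was named after its values were seen. Of 11 tested rows of replication-independent histones 0 passed in any comparison, with medians of -0.03 for PNO against SAL and -0.06 for IUO against SAL on the log2 scale. *H3f3b*, a gene of the replacement histone H3.3, had log2 fold changes of 0.01 ± 0.11 and 0.04 ± 0.11 in these comparisons, and *H2afz*, the gene of H2A.Z, -0.03 ± 0.12 and 0.00 ± 0.12. In IUO against SAL 4 of the 11 rows were higher and 7 lower. The row farthest from 0 there was *H2afj*, named after its values were seen, at -0.47 ± 0.20 (edgeR adjusted p = 0.673). Of 17 rows for histone mRNA processing 0 passed, with *Slbp* at 0.07 ± 0.10 and -0.03 ± 0.10. Of 18 rows of histone chaperones, which carry histones to and from DNA, 0 passed, and the medians were -0.05 and -0.01. Of 30 cell cycle rows 0 passed. In PNO against SAL 27 of these were lower with a median of -0.20, beside 49.2% negative over all rows, and *Mki67* was at -0.20 ± 0.15 (edgeR adjusted p = 0.912). In IUO against SAL 14 of the 30 were lower with a median of 0.01, and *Mki67* and *Top2a* were at 0.11 ± 0.15 and 0.10 ± 0.22. In IUO against PNO 24 of the 30 were higher with a median of 0.20, beside 50.1% of all rows negative, and *Mcm7*, a subunit of the replicative helicase that was named after its values were seen, was at 0.38 ± 0.11 (adjusted p = 0.126).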

How the data were processed

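RNA from the PFC of 18 pups was sequenced. Groups and replicate numbers were taken from the sample titles. The authors deposited, for each pup, an expected count of every gene, in which reads that match several genes are shared out by estimation, without normalization. The TPM values deposited by the authors correct for gene length and sum to an equal total in every pup. The FPKM values deposited by the authors were not used. Aligner, quantification program, annotation, genome build and the authors' own test are not given in the sources used here.

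Members were found by symbol (40 of 32623 rows) and classed by the histone in the symbol. Members and gene lists were chosen with earlier results of these data known. Rounded expected counts entered edgeR 4.0.16 (R 4.3.3; TMM normalization with factors of 0.937 to 1.06, filterByExpr by group with a minimum count of 10, glmQLFit and glmQLFTest in 1 model over 3 groups with 15 residual degrees of freedom, two-sided), with Benjamini-Hochberg adjustment over 15703 rows. CPM values are TMM-normalized (prior count of 2 on the log2 scale). Relations used 100000 permutations. The genes named are the top 3 of each class by mean TPM, members past an unadjusted p-value of 0.05 and 1.5-fold, *Hist1h2bcl1*, *Hist1h2bk*, members that share all counts with another row, genes of the other lists past an adjusted p-value of 0.05 (none were), and a few reference genes. *Hist1h2bo*, *Hist1h2ao* and *H3f3a* fall outside this rule and were named after their values were seen. Promoters came from RefSeq (GRCr8). The tests were tested on simulated data. Alternatives were other size factors, no normalization, DESeq2 1.42.0, limma-voom with sample quality weights (limma 3.58.1; voom without weights was not run), other filters, only the 12 pups compared, a replicate block, each pup left out in turn, identical rows summed, and any fold. Further software was Python 3.11.15 with numpy 2.4.6, pandas 2.3.3, scipy 1.17.1 and matplotlib 3.10.9. The number of reads limits the low rows, and p-values cover the spread between pups.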

Additional observations from a re-analysis of the deposited data

Results flagged for a closer look

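A pup far from the other 5 of its group was found in 2 of 39 groups of values tested with Dixon's criterion at its 95% level, and chance alone flags about 1 in 20 groups. *Hist2h2be* in SAL replicate 1 had a log2 CPM of 0.706, and the nearest SAL pup had -0.015, a gap of 0.709 of the group's range. The H2B class sum in SAL replicate 6 had a log2 CPM of 5.639, below the nearest SAL pup at 5.934, a gap of 0.68 of the range. That pup also had the lowest SAL values of *Hist3h2ba* (36.1 CPM), *Hist1h2bcl1* (11.99 CPM), *Hist1h2bk* (0.344 CPM) and *Hist2h2aa2* (2.502 CPM).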

How the results depend on the processing

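Between PNO and SAL, 0 members were called under every alternative run. At the unadjusted p-value and 1.5-fold the count was 1 with limma-voom (run here with sample quality weights throughout), with the replicate block and without PNO replicate 1 (*Hist2h2be* each time, with log2 fold changes of -1.02, -0.66 and -0.85; 1.53%, 1.17% and 2.27% of all rows passed in these fits), 1 with identical rows summed (the *Hist2h3c2* and LOC102548682 row, 0.71; 1.21% of all rows) and 3 without the filter (*Hist2h2ac*, *Hist2h3c2* and *Hist1h1b*, named after their values were seen, 3 of 40 members beside 2.31% of all rows), and 0 to 1 over the fits that left out a pup (0.741% to 2.40% of all rows). Between IUO and SAL, limma-voom called 1 (*Hist1h2bcl1*), the count at the unadjusted p-value was 1 with a CPM of at least 1 in 6 pups, which leaves *Hist1h2bk* untested (1.23% of all rows), and it was 2 to 3 without a pup (1.41% to 2.23%), *Hist1h4m* being added without SAL replicate 3, SAL replicate 6 or IUO replicate 5. Between IUO and PNO, DESeq2 and limma-voom called 2 each, as did the fit without IUO replicate 1, which called 0.0759% of all rows (*Hist1h2bcl1* and *Hist1h2bk*, the genes selected in this contrast, so that these calls restate the choice), and calls without a pup were 0 to 2. The count at the unadjusted p-value there was 1 with the stricter filter (3.32% of all rows), 3 with limma-voom (*Hist2h2be* added; 8.62%), 3 without the filter (*Hist2h2ab* added, named after its values were seen; 4.72%), 3 with identical rows summed (the *Hist2h3c2* and LOC102548682 row added; 3.80%), 4 at any fold (15.3%) and 2 to 5 without a pup (3.12% to 5.84%; 5 without PNO replicate 1, where 5.84% of all rows passed, and 4 without PNO replicate 5, PNO replicate 6 or IUO replicate 1, with *Hist2h2aa2* and *Hist2h2aa3* added in each). Without PNO replicate 1 *Hist2h2be* was added as well, higher in IUO than in PNO with a log2 fold change of 0.76. For IUO against SAL, the adjusted p-value of *Hist1h2bcl1* ran from 0.0162 to 0.693 over its alternatives, with log2 fold changes of -0.84 to -0.59. That of *Hist1h2bk* ran from 0.0594 to 0.850, with -1.40 to -0.90.

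Values near 0 changed sign. Between PNO and SAL, *Hist1h2bcl1* was at -0.0079 without normalization and -0.0797 with limma-voom, *Hist3h2ba* at 0.0023 and *Hist1h4m* at 0.0335 with limma-voom, and *Hist1h1c* at 0.0103 with the replicate block. *Hist1h2bo* was at 0.0788 between IUO and SAL with limma-voom. With a pup left out, *Hist1h1c* ran from -0.11 to 0.10, *Hist1h2bcl1* from -0.0557 to 0.11 and *Hist3h2ba* from -0.12 to 0.0229 between PNO and SAL, and *Hist2h2be* from -0.18 to 0.12 and *Hist1h2bo* from -0.17 to 0.0884 between IUO and SAL. The relations that passed numbered 0 with log2(TPM + 1), and 0 to 2 without a pup (2 without PNO replicate 1). The cause of these changes was not tested. The replicate numbers were treated as names, since not every pair correlated: same-numbered pups had mean correlations of 0.232, -0.0265 and 0.0626 in the 3 comparisons (PNO with SAL, IUO with SAL, IUO with PNO), 4, 1 and 3 of 6 pairs were over 0.1 (highest 0.488, 0.237 and 0.444), and 2, 0 and 2 of 6 pups correlated best with their own number. The replicate block added *Hist2h2be* to the count at the unadjusted p-value also between IUO and PNO (3 members, 4.14% of all rows) and changed no other call. With 29 rows under a total of 100 counts and 31 outside the filter, most members were not tested, and the low counts limit what can be said of them.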
